A study of Mus musculus with 18 samples.

Results

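The genes of cholesterol and lipid synthesis were examined in the lateral septum (LS) of female mice. Of 30 genes chosen by name, 29 had a target (probeset) that the array annotation assigns to that gene alone, among 19938 genes of the array with such a target. Acat2, whose enzyme makes acetoacetyl-CoA in the cytosol, had none and was not analysed here. Where a gene had several targets, as Idi1, Fdft1 and Acaca did, the brightest by its mean over the 18 arrays stood for it. All 29 genes entered the test, since no filter on low signal was applied.

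There were 3 groups of 6 mice, lactating maternal, pups removed and virgin, and each mouse had its own Affymetrix Mouse Gene 1.0 ST array. All were outbred hsd:ICR females about 70 days old. Dissection of the maternal and pups removed mice took place on postpartum Day 7, after litters had been culled to 11 pups. In the pups removed group the litter was taken away on Day 2, and the maternal group kept its pups. Before this the females had spent 2 weeks with a breeder male, and the virgin females had been housed with other females in its place. The virgin and pups removed mice on the arrays were in diestrus, so the cycle stage was held alike between them. The tissue was a bilateral micropunch of LS, which holds neurons, glia and vessels together, so that fewer cells of a type and less RNA per cell cannot be told apart in any of the values. Signal is on the log2 scale of the deposited values, where a difference of -0.16 in signal equals a ratio of 0.897, as for Sqle. An adjusted p is that of limma with the Benjamini-Hochberg method over all 35557 targets. A gene is said to pass where its adjusted p is under 0.25, the threshold of the study. As fitted here, 585 targets passed in maternal relative to virgin LS and 11 in maternal relative to pups removed LS. The study lists more as changed in both of these comparisons. Whether a gene passes therefore refers to the fit made here, and not to the calls of the study.

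Cholesterol is built from acetyl-CoA. The mevalonate arm leads to farnesyl diphosphate, from which squalene is made and oxidized, closed into lanosterol and trimmed step by step into cholesterol. The sterol regulatory element binding proteins, whose activation Scap promotes and Insig1 holds back when sterols are plentiful, switch on these genes and those of fatty acid synthesis. Little cholesterol enters the brain from blood, so brain cells make their own, with astrocytes and myelinating oligodendrocytes as major producers. Neurons convert surplus cholesterol with the hydroxylase Cyp46a1 into a form that leaves the brain, while Abca1 and Abcg1 export cholesterol from cells onto lipoproteins.

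The start regions of the genes were read first, because these genes are known to share regulators. RefSeq (build GRCm38.p6) promoter windows of 250 bases before and 50 bases after an annotated start were found for 22 of the 29 genes, 28 windows in all. Windows are not shown for Fdps, Fdft1, Sqle, Stard4, Scd1, Scd2 and Abcg1. Shown here are the 150 bases before an annotated start of each of 8 genes. They are the 7 genes with a window that were below an unadjusted limma p of 0.05 in some comparison, and Insig1, which sits on the same regulatory loop as Hmgcs1. The bases are written on the gene's strand, and capitals mark CCAAT (or ATTGG, the same letters on the other strand) and, in Hmgcs1, the sterol regulatory element core TCACCCCAC.
Hmgcs1: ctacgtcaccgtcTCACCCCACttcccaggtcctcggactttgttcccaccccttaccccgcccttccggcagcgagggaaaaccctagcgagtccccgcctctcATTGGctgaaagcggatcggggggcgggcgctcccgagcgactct
Pmvk: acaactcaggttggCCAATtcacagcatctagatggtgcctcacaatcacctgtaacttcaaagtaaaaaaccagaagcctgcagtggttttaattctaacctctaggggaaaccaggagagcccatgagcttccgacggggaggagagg
Idi1: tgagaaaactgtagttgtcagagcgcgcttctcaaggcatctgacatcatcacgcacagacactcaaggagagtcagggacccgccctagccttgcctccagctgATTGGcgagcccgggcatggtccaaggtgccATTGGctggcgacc
Lss: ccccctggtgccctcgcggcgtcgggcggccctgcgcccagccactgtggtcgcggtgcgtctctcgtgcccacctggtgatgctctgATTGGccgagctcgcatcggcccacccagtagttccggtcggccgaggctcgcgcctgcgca
Msmo1: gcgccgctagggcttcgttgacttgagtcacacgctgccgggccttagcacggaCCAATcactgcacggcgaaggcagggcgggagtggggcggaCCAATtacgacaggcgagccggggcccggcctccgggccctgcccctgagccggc
Insig1: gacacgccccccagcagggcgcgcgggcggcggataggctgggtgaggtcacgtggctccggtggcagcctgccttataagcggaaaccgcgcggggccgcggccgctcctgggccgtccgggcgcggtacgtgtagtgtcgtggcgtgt
Fasn: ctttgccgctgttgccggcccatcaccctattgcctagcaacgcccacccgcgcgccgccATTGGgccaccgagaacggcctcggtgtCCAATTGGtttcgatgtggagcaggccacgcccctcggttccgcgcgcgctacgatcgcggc
Cyp46a1: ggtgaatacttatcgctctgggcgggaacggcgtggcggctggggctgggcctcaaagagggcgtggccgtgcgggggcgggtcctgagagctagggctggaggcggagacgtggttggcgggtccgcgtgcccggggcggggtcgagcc

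These stretches lie at chr13:119690201-119690350 (plus strand) for Hmgcs1, chr3:89454391-89454540 (plus strand) for Pmvk, chr13:8885456-8885605 (plus strand) for Idi1 and chr10:76531455-76531604 (plus strand) for Lss. The others lie at chr8:64733579-64733728 (minus strand) for Msmo1, chr5:28071262-28071411 (plus strand) for Insig1, chr11:120824548-120824697 (minus strand) for Fasn and chr12:108334166-108334315 (plus strand) for Cyp46a1. For Fasn, Lss and Cyp46a1 the start used lies inside the RefSeq bounds of the gene. The whole Fasn stretch and the last bases of those of Lss and Cyp46a1 are therefore within these bounds. The CCAAT box, bound by the factor NF-Y, was found in at least 1 full window of 19 of 22 genes (86.4%) on either strand, against 41.7% of the 15614 array genes with a window. On the gene's own strand alone the shares were 40.9% and 24.1%. In Insig1 and Cyp46a1 the match lay farther from the start than the bases shown. The GC box GGGCGG, the letters bound by Sp1, was also found in 19 of 22 genes on either strand, against 52.9% of array genes. For the E-box CACGTG the share was 27.3% (6 of 22 genes), against 9.5% of array genes. The sterol regulatory element core TCACNCCAC, searched on both strands, was found only in Hmgcs1 among the 22 genes, 137 bases before its start, against 1.4% of array genes. A match of letters is a description of the sequence, and a window without it says nothing of the factor.

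**Figure D1:**
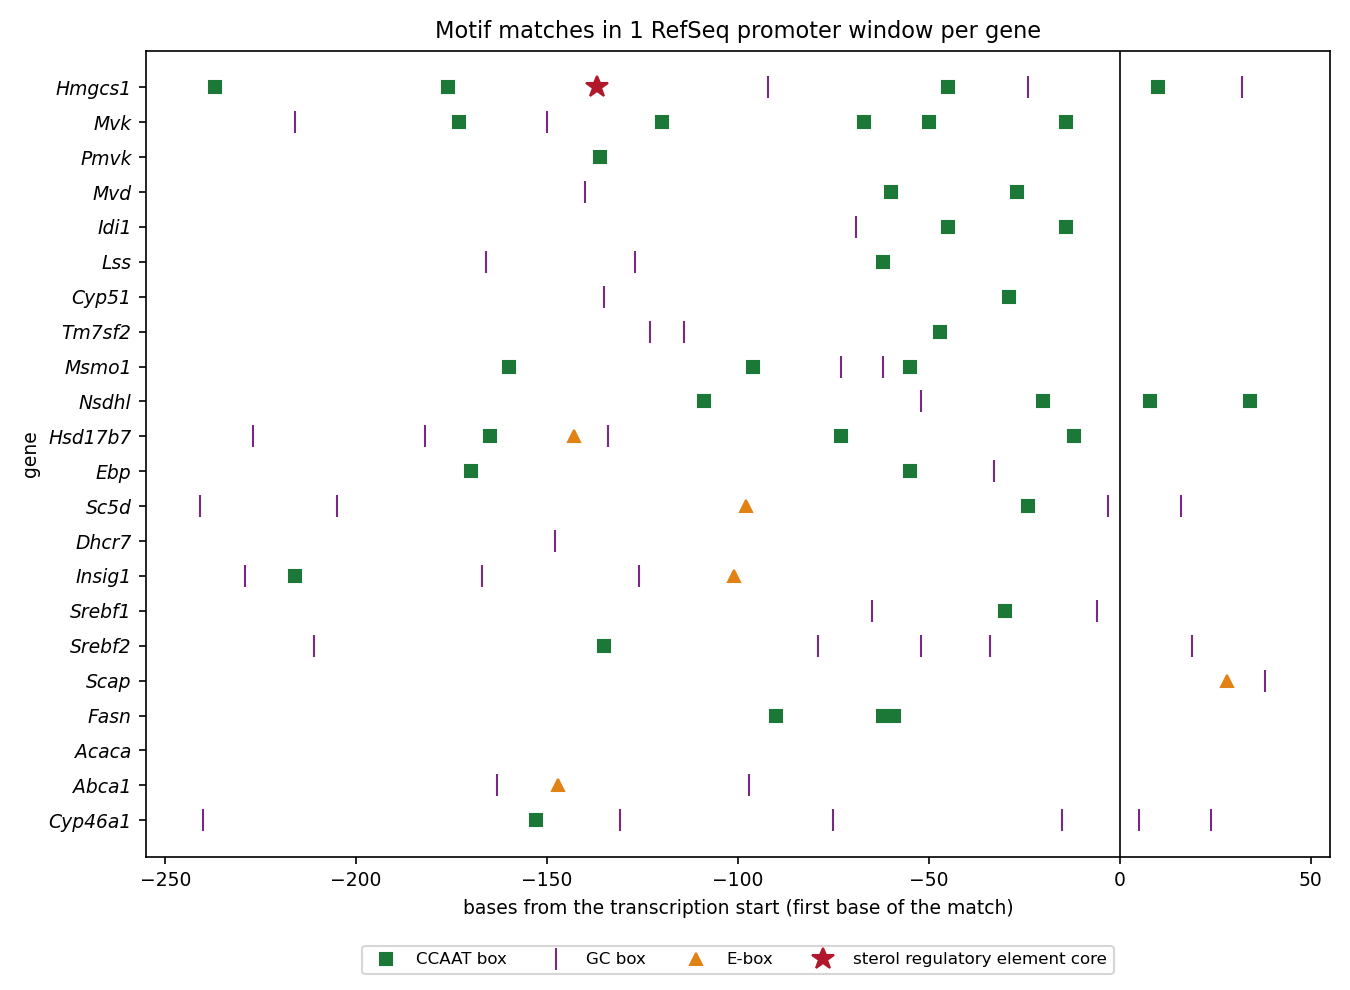
Matches to 4 motifs in 1 promoter window of each of 22 genes, by distance in bases from the annotated start (vertical line), on either strand. Rows run in pathway order from Hmgcs1 to Cyp46a1, and most hold a CCAAT box (square), while the sterol regulatory element core (star) appears only in Hmgcs1.

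In lactating maternal LS relative to virgin, 26 of the 29 genes had a lower mean and 3 had a higher mean, Pmvk, Scd1 and Acaca, but 0 passed the test in limma. Over all targets, 1.65% passed in this comparison and 43.4% had a difference below 0, and among the 19938 genes with their own target the share below 0 was 49.7%. The differences were small, running from -0.16 (Sqle) to 0.12 (Scd1), and all 95% limma intervals lay between -0.31 and 0.27, or ratios of 0.809 and 1.21. Without adjustment 4 genes were lower at p under 0.05, against 4.62% of all targets, and 1 was higher, against 5.80%. Among the 19938 genes these shares were 5.97% lower and 3.79% higher. The groups overlapped for each of the 29 genes, against 0.835% of targets whose groups did not overlap.

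Sterol synthesis held 16 of these 26 genes. Of its 17 measured genes, 16 were lower in maternal LS than in virgin, with a median difference of -0.068, beside a median of 0 over the 19938 genes. The class median was -0.043 without virgin replicate 2 and -0.042 without virgin replicate 4. Within it, all 11 genes from squalene to cholesterol had a difference below 0 (median -0.068, -0.16 to -0.025). The 6 genes of the mevalonate arm had a median of -0.056, with Pmvk above 0.

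Sqle, the squalene epoxidase that catalyses a rate-limiting oxygenation, had 8.74, 8.85 and 8.89 (lowest, median, highest) in maternal mice, against 8.77, 9.07 and 9.13 in virgin mice. Virgin replicates 1 and 6 sat inside the maternal range and the other 4 virgin mice above it. The difference was -0.16 (standard error, SE, 0.062, limma adjusted p = 0.387). Without virgin replicate 1 it was -0.20 and without virgin replicate 6 also -0.20, and Sqle then passed in limma (adjusted p = 0.214 and 0.176). With each array left out in turn, the Sqle difference ran from -0.20 to -0.13 and its limma adjusted p from 0.176 to 0.609.

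Lss, the lanosterol synthase that closes the ring system, had 8.38, 8.45 and 8.57 in maternal mice, against 8.48, 8.56 and 8.69 in virgin mice. The upper maternal mice overlapped the lower virgin mice. The difference was -0.10 (SE 0.044, limma adjusted p = 0.426). Pmvk, the phosphomevalonate kinase, ran the other way, with 7.94, 7.96 and 8.02 in maternal mice, against 7.77, 7.89 and 7.98 in virgin mice. Its difference was 0.092 (SE 0.040, limma adjusted p = 0.443).

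The genes at the entry and the middle of the path lay between these. Hmgcs1, the HMG-CoA synthase, averaged 10.15 ± 0.096 in maternal mice, against 10.27 ± 0.15 in virgin mice (SD, n = 6 each). Msmo1, a methylsterol monooxygenase, averaged 9.71 ± 0.13 in maternal mice, against 9.83 ± 0.12 in virgin mice (SD, n = 6 each). The lanosterol demethylase Cyp51 differed by -0.10 (SE 0.066) and the isopentenyl diphosphate isomerase Idi1 by -0.10 (SE 0.090). Dhcr7, the reductase of the last step, and Sc5d, the sterol desaturase, stood nearest to 0 among the later genes together with Nsdhl, with differences of -0.035, -0.025 and -0.035.

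Among the regulators and carriers, all 5 genes had a mean below that of virgin mice, with a median of -0.065. Insig1, which retains the Scap complex in the endoplasmic reticulum, had 9.77, 9.85 and 9.97 in maternal mice, against 9.73, 10.01 and 10.14 in virgin mice, a difference of -0.13 (SE 0.084, limma adjusted p = 0.613). Srebf2, the factor that mainly drives sterol genes, differed by -0.073 (SE 0.039, limma adjusted p = 0.536). Srebf1, which mainly drives fatty acid genes, differed by -0.065, the sterol carrier Stard4 by -0.032 and Scap by -0.020.

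Fatty acid synthesis was divided. Fasn, the fatty acid synthase, had the smallest p of all 29 genes, with 10.54, 10.60 and 10.65 in maternal mice, against 10.62, 10.71 and 10.86 in virgin mice. Only the top of the maternal range reached into the virgin range, and the difference was -0.12 (SE 0.044, limma adjusted p = 0.323). Without virgin replicate 6 it was -0.14 and passed in limma (adjusted p = 0.192). With each array left out in turn, the Fasn difference ran from -0.14 to -0.095 and its limma adjusted p from 0.192 to 0.580. Scd1, a desaturase that makes oleate, had 11.95, 11.99 and 12.08 in maternal mice, against 11.77, 11.90 and 12.03 in virgin mice, a difference of 0.12 (SE 0.072, limma adjusted p = 0.598). Its close relative Scd2 differed by -0.017 and Acaca, the acetyl-CoA carboxylase, by 0.035. The median of the 4 genes was 0.0092, against -0.068 for sterol synthesis, and it was -0.0072 without virgin replicate 1, -0.0012 without virgin replicate 6, -0.0027 without maternal replicate 5 and -0.0075 with arrays centred on their median.

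The 3 genes of efflux and elimination all had lower means in maternal LS. Cyp46a1 had 10.29, 10.34 and 10.37 in maternal mice, against 10.34, 10.41 and 10.48 in virgin mice, a difference of -0.072 (SE 0.032, limma adjusted p = 0.456). The transporter Abca1 differed by -0.075 (SE 0.057) and Abcg1 by -0.027 (SE 0.029). Their median was -0.072, and -0.039 without virgin replicate 3. Other exporters and sterol hydroxylases of the wider list described later lay above 0 in this comparison, at 0.077 for Abcg4 (SE 0.033), 0.11 for Cyp27a1 (SE 0.048), 0.037 for Abca7 (SE 0.046) and 0.032 for Abca2 (SE 0.036). The contrast between the 3 classes is a description, and no difference between classes was tested.

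**Figure D2:**
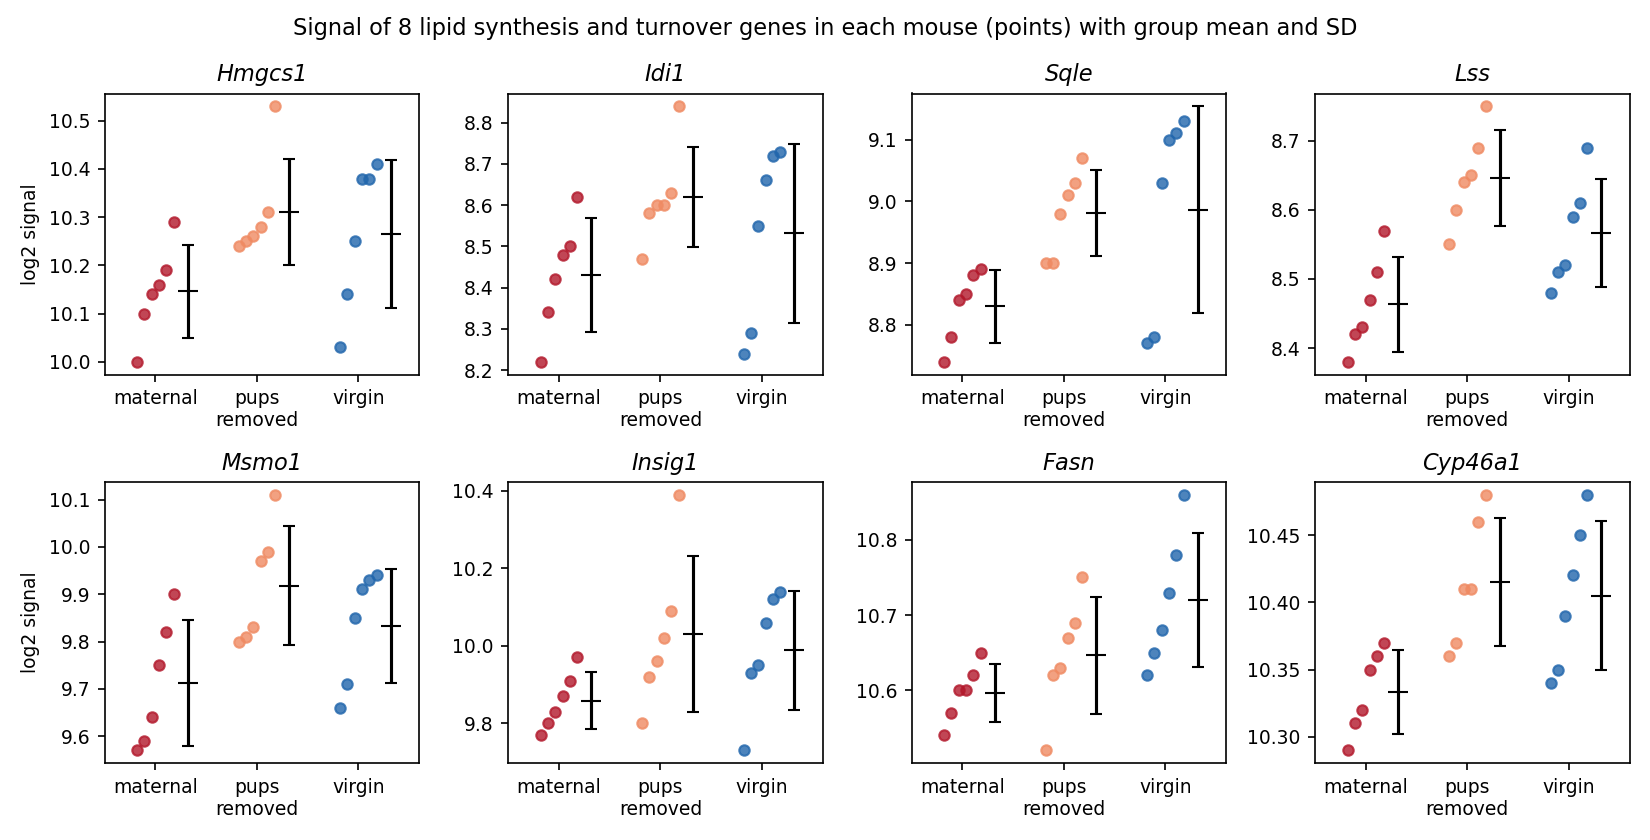
Log2 signal of 8 genes in each mouse (points, sorted within a group) of the maternal, pups removed and virgin groups, with the group mean and SD (black) beside them, n = 6 each, on axes that do not start at 0. Maternal points sit low for Sqle, Lss and Cyp46a1, and 2 virgin mice sit with them for Sqle.

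The comparison of lactating maternal with pups removed LS asks whether a difference goes with the presence of pups, since both groups had given birth. Only the maternal mice were still nursing on the day of dissection, and their cycle stage was not given. These cannot be told apart from the presence of pups. The comparison shares the maternal arrays with the one above, so the 2 are not independent. Of the 29 genes, 24 had a lower mean in maternal LS and 5 a higher mean, and 0 passed in limma. Over all targets 0.0309% passed and 51.7% had a difference below 0 (52.5% among the 19938 genes). At an unadjusted p under 0.05, 0 genes were higher, against 3.33% of targets (3.44% of the 19938 genes). At that level 6 were lower, Lss, Msmo1, Cyp46a1, Sqle, Hmgcs1 and Idi1, against 5.63% of targets (6.48% of the 19938 genes).

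Sterol synthesis again held most of these, with 16 of 17 genes lower and a median of -0.082 (-0.047 without maternal replicate 2), beside -0.0050 over the 19938 genes. The 11 genes from squalene to cholesterol had a median of -0.10 and all lay below 0 (-0.21 to -0.013). The mevalonate arm had a median of -0.052, and Pmvk was the gene above 0 (0.030). The 95% limma intervals of the 29 genes lay between -0.38 and 0.22, or ratios of 0.769 and 1.16.

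Lss came nearest to the threshold. It had 8.38, 8.45 and 8.57 in maternal mice, against 8.55, 8.65 and 8.75 in pups removed mice, so the groups met only at the highest maternal and lowest pups removed mouse. The difference was -0.18 (SE 0.044, limma adjusted p = 0.278). It passed in limma without pups removed replicate 4 (-0.16, adjusted p = 0.202) and, as the same difference of -0.18, when fewer targets were tested. With each array left out in turn, the Lss difference ran from -0.20 to -0.16 and its limma adjusted p from 0.202 to 0.577.

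Sqle was the only gene of the 29 whose groups did not overlap, against 0.529% of all targets. It had 8.74, 8.85 and 8.89 in maternal mice, against 8.90, 8.995 and 9.07 in pups removed mice, a difference of -0.15 (SE 0.062, limma adjusted p = 0.505). Msmo1 had the largest difference of the 29, -0.21 (SE 0.071, limma adjusted p = 0.421), with 9.57, 9.70 and 9.90 in maternal mice, against 9.80, 9.90 and 10.11 in pups removed mice. In both genes the pups removed mice were the higher ones, and for Msmo1 2 maternal mice reached their range.

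At the start of the path, Hmgcs1 had 10, 10.15 and 10.29 in maternal mice, against 10.24, 10.27 and 10.53 in pups removed mice. The difference was -0.17 (SE 0.069, limma adjusted p = 0.511). Idi1 had 8.22, 8.45 and 8.62 in maternal mice, against 8.47, 8.60 and 8.84 in pups removed mice, a difference of -0.19 (SE 0.090, limma adjusted p = 0.556). The second Idi1 target gave -0.18 (SE 0.083), close to the first. For Fdft1, the squalene synthase, the 2 targets differed more, with -0.013 (SE 0.067) at the brighter and -0.11 (SE 0.082) at the other. Pups removed replicate 4 had the highest value of its group for Hmgcs1 and Idi1, and without it the differences were -0.12 and -0.15.

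The other classes were mixed. Among regulators, Insig1 averaged 9.86 ± 0.074 in maternal and 10.03 ± 0.20 in pups removed mice (SD, n = 6 each), a difference of -0.17 (SE 0.084), with pups removed replicate 4 at 10.39. Srebf2 differed by -0.080 (SE 0.039), and Srebf1 by 0.0033. The 4 fatty acid genes had a median of -0.00083, with Fasn at -0.050 (SE 0.044) and Scd1 at 0.065 (SE 0.072). In the elimination class, Cyp46a1 had 10.29, 10.34 and 10.37 in maternal mice, against 10.36, 10.41 and 10.48 in pups removed mice, a difference of -0.082 (SE 0.032, limma adjusted p = 0.492). Abca1 differed by -0.070 (SE 0.057) and Abcg1 by 0.018 (SE 0.029).

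**Figure D3:**
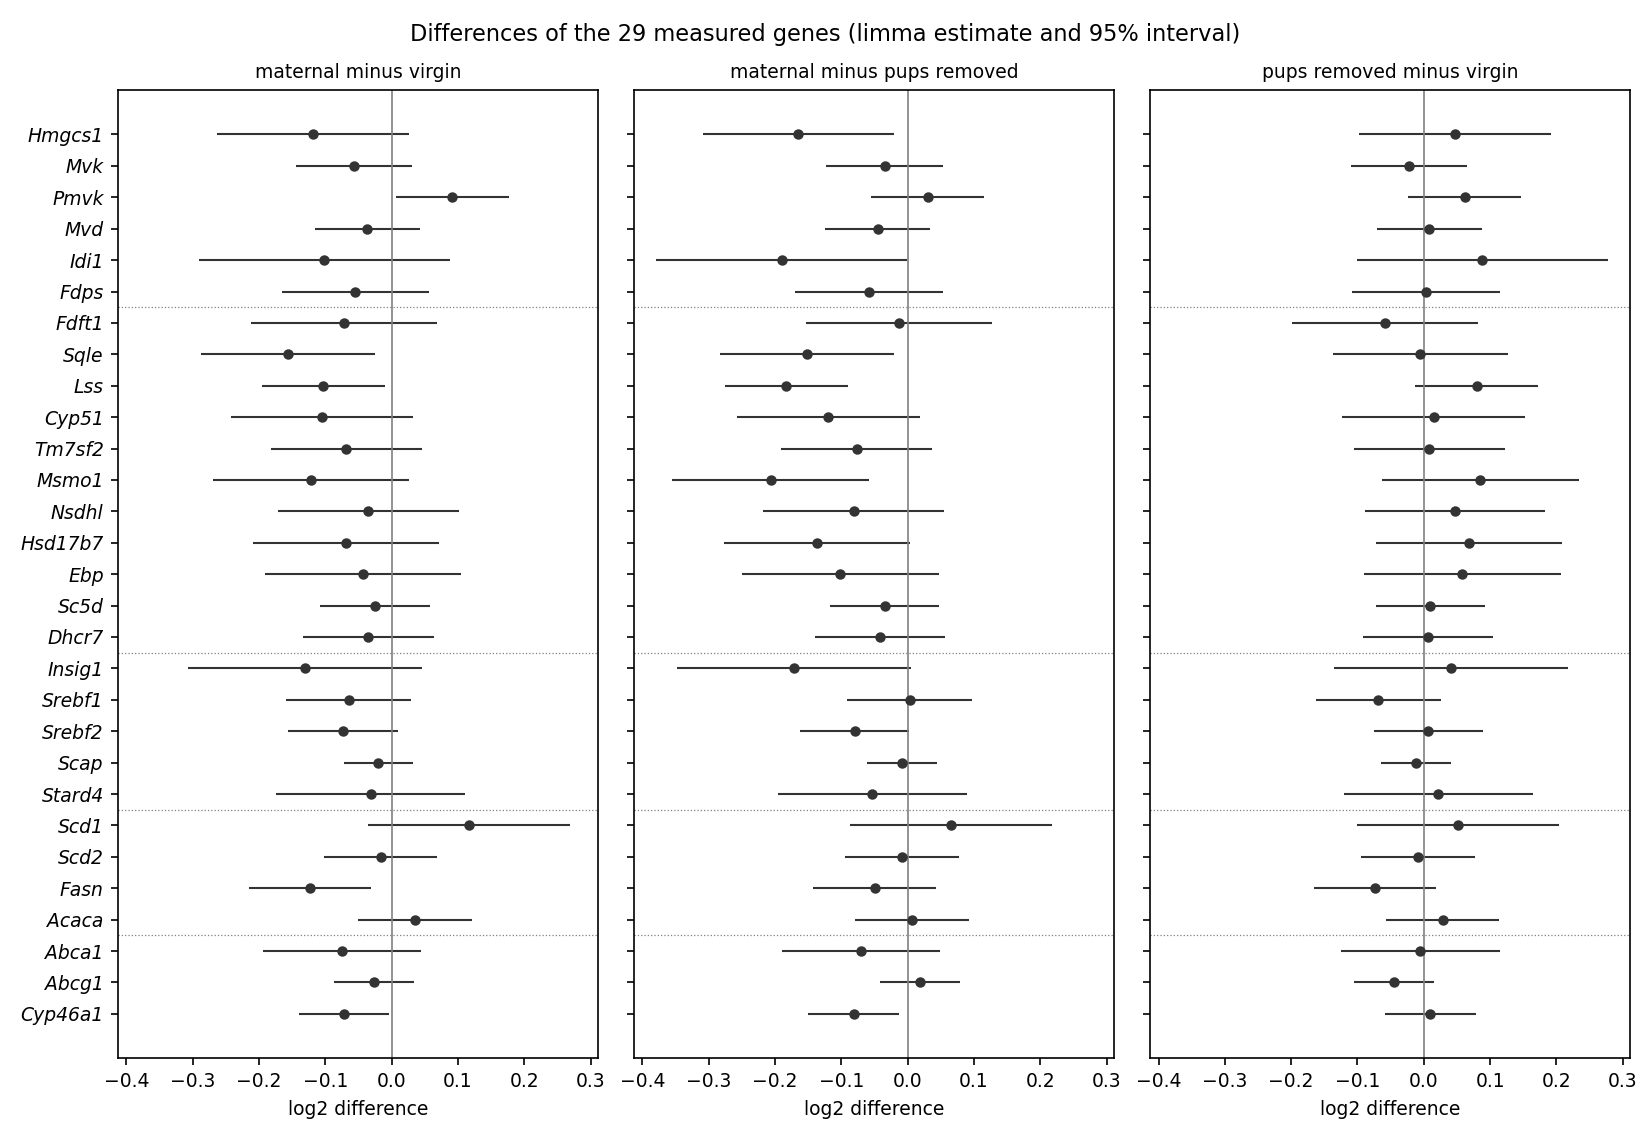
Log2 difference (point) and 95% limma interval (line) of each of the 29 genes for maternal minus virgin, maternal minus pups removed and pups removed minus virgin, with dotted lines between the mevalonate arm, squalene to cholesterol, regulation and transport, fatty acid synthesis and efflux and elimination. The genes from squalene to cholesterol lie left of 0 in both maternal panels, and every interval includes 0 in the pups removed minus virgin panel.

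Pups removed and virgin LS lay closer together. Of the 29 genes, 20 had a higher mean and 9 a lower mean in pups removed LS, and 0 passed in limma, against 0.208% of all targets. At an unadjusted p under 0.05, 0 genes were lower and 0 higher, against 1.99% and 6.15% of targets (2.01% and 2.94% of the 19938 genes). The groups of 0 genes were apart, against 0.380% of targets. Sterol synthesis had 3 of 17 genes below 0, against 42.3% of all targets and 47.3% of the 19938 genes. Its median was 0.015, while the fatty acid and efflux classes had medians of 0.010 and -0.0050. The count below 0 was 9 of 17 once each array was centred on its median, so the direction of this class in this comparison turned on the scaling. It also turned on single mice, with 9 of 17 below 0 without virgin replicate 1 and 7 of 17 without pups removed replicate 4.

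The smallest p was that of Lss, 8.55, 8.65 and 8.75 in pups removed mice, against 8.48, 8.56 and 8.69 in virgin mice, a difference of 0.080 (SE 0.044, limma adjusted p = 0.690). Fasn had 10.52, 10.65 and 10.75 in pups removed mice, against 10.62, 10.71 and 10.86 in virgin mice, a difference of -0.073 (SE 0.044, limma adjusted p = 0.718). These ranges overlapped over most of their length. Abcg1 had 9.97, 10.06 and 10.08 in pups removed mice, against 10.05, 10.09 and 10.14 in virgin mice, a difference of -0.045 (SE 0.029, limma adjusted p = 0.740). Srebf1 had 9.03, 9.17 and 9.26 in pups removed mice, against 9.13, 9.24 and 9.29 in virgin mice, a difference of -0.068 (SE 0.045, limma adjusted p = 0.746). The 95% limma intervals of the 29 genes ran from -0.20 to 0.28, or ratios of 0.871 to 1.21, and the 2 groups were not shown to be equal.

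Some mice stood apart across many sterol genes. The mean over the 17 sterol genes of an array was 8.78 to 8.93 in maternal mice, 8.92 to 9.06 in pups removed mice and 8.80 to 9.03 in virgin mice. Virgin replicates 1 and 6 had the lowest means of their group, and pups removed replicate 4 had the highest mean of all 18. The median over all targets was also highest in pups removed replicate 4 (7.70), while it was 7.67 and 7.68 in virgin replicates 1 and 6. Pups removed replicate 4 was also the highest of its group for Scd1, at 12.30, and Scd2, at 13.32. Fatty acid synthesis had a mean of 11.30 ± 0.028 in maternal, 11.30 ± 0.086 in pups removed mice and, in virgin mice, 11.30 ± 0.072 (SD, n = 6 each). Efflux and elimination had 9.85 ± 0.032 in maternal, 9.89 ± 0.039 in pups removed mice and, in virgin mice, 9.91 ± 0.032 (SD, n = 6 each).

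**Figure D4:**
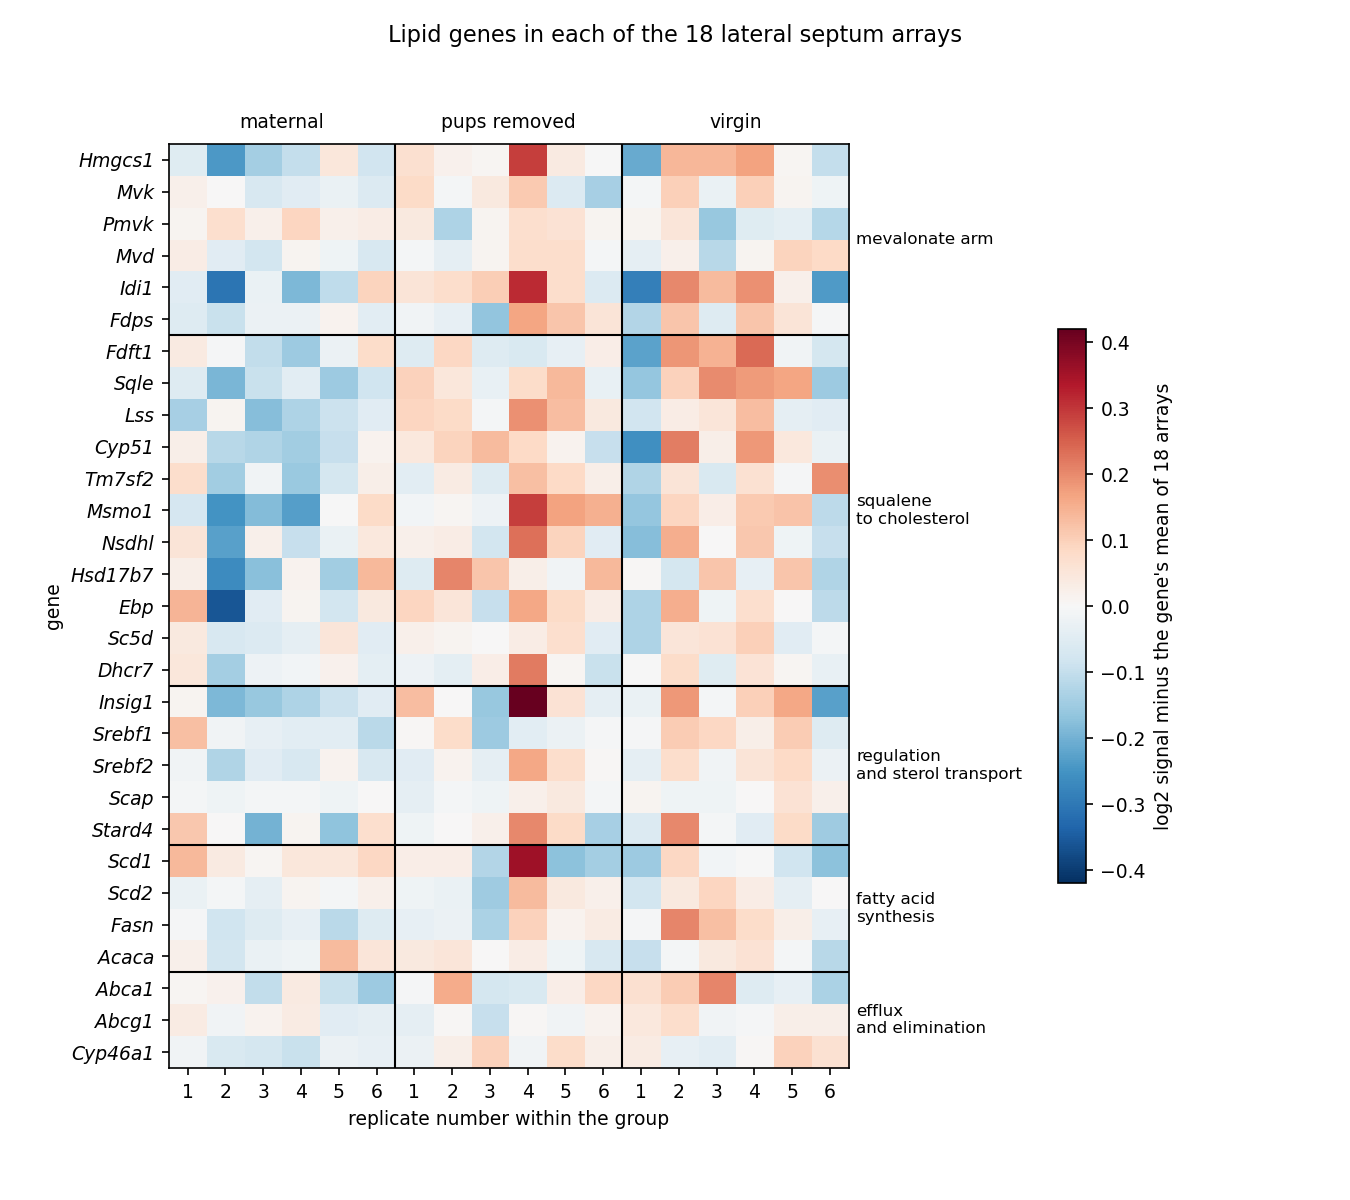
Log2 signal of each of the 29 genes (rows, by class) minus that gene's mean of 18 arrays, in the 6 maternal, 6 pups removed and 6 virgin arrays (columns, by replicate number), with red above and blue below the mean. Of the 17 sterol genes, 12 to 15 are below their mean in maternal replicates 2 to 5, 6 and 8 in maternal replicates 1 and 6, 15 in virgin replicates 1 and 6 and 1 in pups removed replicate 4.

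To describe how genes moved together beyond the groups, 6 pairs were correlated over the 18 arrays after the group means were removed, with a two-sided permutation test within groups and Benjamini-Hochberg adjustment over the 6 pairs. Hmgcs1 and Insig1, both targets of the sterol regulatory factors, had a Pearson r of 0.697 (permutation p = 0.00585, adjusted 0.0268) and a Spearman rho of 0.793 (permutation p = 0.00043, adjusted 0.00258). Within the groups r was 0.649 in maternal, 0.944 in pups removed and 0.573 in virgin mice. Hmgcs1 and Sqle had an r of 0.674 (permutation p = 0.0134, adjusted 0.0269) and a rho of 0.673 (permutation p = 0.00791, adjusted 0.0237), with 0.269, 0.373 and 0.888 within maternal, pups removed and virgin mice. Idi1 and Sqle had an r of 0.740 (permutation p = 0.00894, adjusted 0.0268) and a rho of 0.553 (permutation p = 0.0407, adjusted 0.0813), with 0.517, 0.332 and 0.912 within the same groups.

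These 3 relations were positive within each group, but r was lower without the arrays farthest out. Without the 2 arrays farthest from the median of the gene named first, r was 0.645, 0.623 and 0.522 for the 3 pairs in that order, and permutation p adjusted over the 6 pairs was 0.0634, 0.072 and 0.203, so none of the 3 then passed 0.05. The other pairs did not pass. The paralogs Scd1 and Scd2 had an r of 0.585 (adjusted permutation p = 0.129) and a rho of 0.389 (adjusted permutation p = 0.199), and r was 0.273 without the 2 farthest arrays. Abca1 and Abcg1 had an r of 0.369 (adjusted permutation p = 0.183) and a rho of 0.448 (adjusted permutation p = 0.118), and r was 0.678 without the 2 farthest arrays (adjusted permutation p = 0.053). Srebf1 and Srebf2 had an r of 0.273 (adjusted permutation p = 0.306) and a rho of 0.222 (adjusted permutation p = 0.396), and r was 0.108 without the 2 farthest arrays. The points share array and scaling, and the genes of a pair were measured in the same punch.

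**Figure D5:**
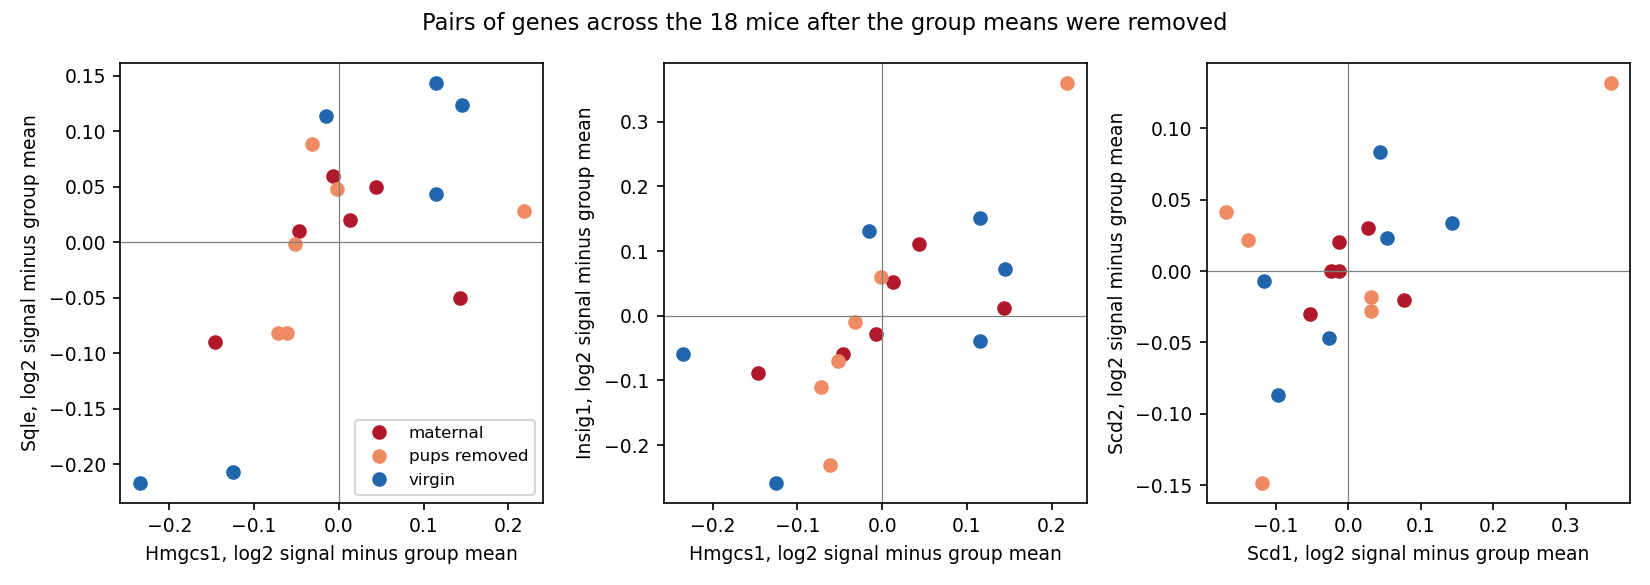
Residual log2 signal, the value of a mouse minus its group mean, for Hmgcs1 and Sqle, Hmgcs1 and Insig1, and Scd1 and Scd2 (r = 0.674, 0.697 and 0.585), 18 mice in each panel, coloured as maternal, pups removed and virgin. The point at the upper right of the Hmgcs1 and Insig1 panel and of the Scd1 and Scd2 panel is pups removed replicate 4.

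Other genes of lipid metabolism outside the 29 showed medians smaller in size than those of sterol synthesis in both maternal comparisons. Of 15 genes of fatty acid and glycerolipid synthesis, such as Acly, Elovl6, Gpam and Lpin1, 14 were measured and 0 passed in limma in any of the 3 comparisons. In maternal LS relative to virgin, 1 was lower (Gpam, -0.090) and 1 higher (Elovl6, 0.10) at an unadjusted p under 0.05, and the median was -0.020. Relative to pups removed, 1 was lower (Gpam, -0.125, limma adjusted p = 0.310) and 0 were higher, with a median of -0.025. Of 20 genes of sterol handling, which take in export, oxidation, trafficking and sensing, such as Abcg4, Cyp27a1, Npc2 and Nr1h3, 17 were measured and 0 passed in limma in any comparison. In maternal LS relative to virgin, 2 were higher, Abcg4 and Cyp27a1, and 0 lower at an unadjusted p under 0.05 (median -0.017), and relative to pups removed 2 were higher and 2 lower (median -0.017).

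The marker genes of cell types bear on tissue content. The 9 markers of LS and GABA neurons had a mean signal of 10.88 to 10.97 in maternal, 10.79 to 11.05 in pups removed and 10.90 to 10.99 in virgin mice. Of the main producers of brain cholesterol, 8 astrocyte markers had a median difference of -0.048 and 9 oligodendrocyte markers of 0 in maternal LS relative to virgin, and 0 passed in limma. Their mean signal overlapped between the groups. Among them only the astrocyte marker Gjb6 was at an unadjusted limma p under 0.05, and it was higher (0.23, SE 0.081). All 5 markers of oligodendrocyte precursors and newly forming oligodendrocytes were lower, 1 of them past the test (Enpp6, -0.31, SE 0.092, limma adjusted p = 0.244). Pdgfra and Cspg4 differed little (-0.010, SE 0.065, and -0.025, SE 0.046), and the larger differences were those of Gpr17 (-0.11), Bmp4 (-0.19) and Enpp6. The mean signal of the 5 was 8.30 to 8.51 in maternal, 8.49 to 8.64 in pups removed and 8.502 to 8.63 in virgin mice. All 11 markers of striatal medium spiny neurons, which lie beside the LS, were lower too, 3 of them past the test, with a mean signal of 9.29 to 9.97 in maternal, 9.53 to 10.54 in pups removed and 10.11 to 10.37 in virgin mice. The 4 choroid plexus markers had a median of -0.63 and 0 passed, with a mean signal of 8.18 to 10.24 in maternal, 7.93 to 10.59 in pups removed and 8.21 to 10.62 in virgin mice. The 4 ependymal markers were also below virgin (median -0.31, 0 passed). Of 7 microglia markers 2 passed as lower, P2ry12 (-0.18, limma adjusted p = 0.114) and Aif1 (-0.14, limma adjusted p = 0.179). In that list 4 markers were lower and 3 higher, among them Tmem119 (0.075, SE 0.034), and the median was -0.020. Of 5 endothelial markers Flt1 passed as higher (0.15, limma adjusted p = 0.190), while 3 of the 5 were lower and the median was -0.023.

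Relative to pups removed, 0 of these markers passed in limma as fitted here, while the study lists P2ry12 as changed (here -0.16, limma adjusted p = 0.278). All 11 striatal markers had lower means in maternal LS (median -0.38, 8 at an unadjusted p under 0.05). So did all 4 ependymal markers (median -0.33, 3 at that level) and all 4 choroid plexus markers (median -0.56, 0 at that level). Of the 5 markers of oligodendrocyte precursors and newly forming oligodendrocytes, 4 were lower (median -0.18, 3 at that level) and Pdgfra was not (0.028). The astrocyte markers had a median of -0.041, with 4 higher and 4 lower. At that level Gjb6 was higher (0.28) and Aqp4 lower (-0.16). The oligodendrocyte markers had a median of 0.025, with 6 higher and 3 lower, and Mobp was higher at that level (0.27). Of 7 microglia markers 4 were higher and 3 lower (median 0.015), with P2ry12 alone at that level. Of 5 endothelial markers 4 were lower (median -0.038, 2 at that level). The blood marker Alas2, the 1 measured, was higher (0.36, SE 0.074, limma adjusted p = 0.275). The part of these shifts in the sterol values was not tested.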

How the data were processed

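RNA was prepared in matched triplets, and 6 mice per group were hybridized, 1 array each. The authors summarized the scans with Affymetrix Power Tools 1.12.0 (PLIER, background by GC bin) and deposited log2 signal with 2 decimals. Normalization was part of that step by the study's methods, and a method between arrays is not given in the sources used here. Array medians ran from 7.61 to 7.70. Arrays have no read depth, and the number of arrays limits the precision.

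A model of 3 groups was fitted to all 35557 targets and 18 arrays in limma 3.58.1 (R 4.3.3, empirical Bayes), and was tested on simulated data. No replicate block was used: no pair of same-numbered arrays of different groups correlated over 0.1 (-0.25 to 0.095, 18 pairs), and the labels state no scan batch. The members and lists were chosen with earlier results of these data known. Per-array values and full statistics were given for the 4 genes with the smallest p in each comparison. Hmgcs1, Idi1, Insig1 and Scd1 were added after their values were seen. Alternatives were a replicate block, quantile or median scaling, fewer targets, array weights, a stricter threshold, fits on 2 groups and leaving out each array.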

Additional observations from a re-analysis of the deposited data

Results flagged for a closer look

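Among 87 sets of 6 values (29 genes in 3 groups), 2 held a mouse far from the rest of its group by a Dixon test, or 2.3%, where chance gives about 1 in 20. Hmgcs1 in pups removed replicate 4 was 10.53, with the nearest mouse at 10.31 and the lowest at 10.24. Pmvk in pups removed replicate 2 was 7.80, with the nearest mouse at 7.94 and the highest at 8.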

How the results depend on the processing

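Alternatives were run for 15 gene differences, those of the 4 smallest p in each comparison and of the other genes below an unadjusted p of 0.05, and none of the 15 changed direction. Other named genes, such as Insig1, Srebf2 and Scd1, were not recomputed singly. Lss in maternal against pups removed LS passed alone among the 29 genes, giving 1 in place of 0, without targets of mean under 6 (limma adjusted p = 0.224), with only targets naming 1 gene (0.167) and with array weights (0.147). In maternal against virgin LS, the 1 gene higher at an unadjusted p under 0.05 became 0 with the replicate block, which moved no count of genes that passed (0 in all 3 comparisons), and also 0 with quantile scaling and with arrays centred on their median. It was 2 with only the 2 groups fitted. Centring gave 3 genes lower at that level in maternal against pups removed LS and 1 in pups removed against virgin LS, against 6 and 0. The sterol genes below 0 in pups removed against virgin LS became 9 of 17 with quantile scaling and with centring, against 3.

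With 1 array left out at a time, genes that passed numbered 0 to 2 in maternal against virgin LS (2 without virgin replicate 6, 1 without virgin replicate 1) and 0 to 1 in maternal against pups removed LS. Genes lower at an unadjusted p under 0.05 numbered 2 to 7, 3 to 8 and 0 to 1 in the 3 comparisons, the last being pups removed against virgin LS, and genes higher numbered 0 to 2, 0 to 1 and 0 to 1. The count of genes lower in maternal against virgin LS was 7 without virgin replicate 1 and 2 without virgin replicate 3, 4 or 5 or maternal replicate 2, 3 or 4, and that against pups removed LS was 3 without maternal replicate 2. Sterol genes below 0 numbered 14 to 16, 15 to 16 and 2 to 9. The class medians ran, in maternal against virgin LS, from -0.085 to -0.042 for sterol synthesis, -0.0072 to 0.024 for fatty acid synthesis and -0.079 to -0.039 for efflux and elimination, and in maternal against pups removed LS from -0.10 to -0.047, -0.016 to 0.015 and -0.087 to -0.043. The last of these medians was -0.043 without pups removed replicate 2 and -0.045 with quantile scaling, against -0.070. In pups removed against virgin LS all 3 ranges crossed 0 (-0.00033 to 0.052, -0.028 to 0.025 and -0.037 to 0.012). With arrays centred, r of Scd1 and Scd2 was 0.618 and that of Abca1 and Abcg1 0.598, and both passed (permutation p adjusted over 6 pairs 0.0404 and 0.0243). Under the same centring r was 0.71 for Hmgcs1 and Insig1, 0.73 for Hmgcs1 and Sqle and 0.78 for Idi1 and Sqle. Their adjusted permutation p was 0.0181, 0.0224 and 0.0201. Causes were not tested. The deposited values carry no detection call, so how far a signal stood above background was not assessed.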
